A study of Mus musculus with 16 samples.

Results

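The growth hormone, Stat5 and Igf1 axis of the liver was followed through 10 genes, Ghr, Stat5a, Stat5b, Igf1, Igfals, Socs2, Cish, Bcl6, Cux2 and Egfr. They were chosen by gene symbol, as the growth hormone receptor, the Stat5 genes and genes known as their targets or partners in liver. The rule uses no measured value, but these genes and the lists below were chosen with earlier results of these data known. Counts of called genes set against all genes are therefore a description. Each symbol matched 1 of the 53801 gene IDs of the count table, and all 10 were among the 14351 genes that passed the filter on low counts. RNA-seq counts cover 16 mouse livers, 4 in each of 4 groups: liver-specific Degs1 knockout on high-fat diet, control on high-fat diet, knockout on normal chow, and control on normal chow. Degs1 encodes the enzyme that puts the final double bond into ceramides, and the series asked what its removal from liver does to insulin resistance and fatty liver. The labels give neither the driver of the liver-specific deletion nor the age, sex, length of feeding or hour of collection. Each liver carries its own animal number, so p-values measure the spread between animals. The animal numbers of the 4 groups do not interleave, so any difference that runs with the order of the animals and the group difference cannot be told apart.

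Growth hormone binds the receptor encoded by Ghr, the kinase JAK2 phosphorylates STAT5, and STAT5 enters the nucleus and switches on genes such as Igf1, Igfals, Socs2 and Cish. In male rodents growth hormone is released in pulses, liver STAT5 is active in bursts that follow them, and many liver genes differ between the sexes for that reason. In females the hormone is present more continuously. Cish and Socs2 encode feedback inhibitors of the pathway, and Bcl6 and Cux2 encode repressors that are known as male-biased and female-biased regulators of sex-dependent liver genes in mice.

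Levels are given in CPM, counts scaled to the size of the library, with library sizes corrected by the trimmed mean of M values (TMM). Among the 9 of the 10 genes with a promoter window, Cish has the STAT5-type motif nearest to its annotated start. Bcl6 holds the most copies among them, also within a single window. Their promoter windows are therefore shown here, as RefSeq gives them for GRCm38.p6, each running 250 bases before and 50 after an annotated start and written 5′ to 3′ on the strand of the gene. Capitals mark TTCNNNGAA, the letters of a STAT5 binding site, which reads the same on both strands. The Cish window is chr9:107296409-107296708 on the plus strand. The windows of the Bcl6 starts 1 and 2 are chr16:23988803-23989102 and chr16:23981234-23981533, both on the minus strand.
Cish: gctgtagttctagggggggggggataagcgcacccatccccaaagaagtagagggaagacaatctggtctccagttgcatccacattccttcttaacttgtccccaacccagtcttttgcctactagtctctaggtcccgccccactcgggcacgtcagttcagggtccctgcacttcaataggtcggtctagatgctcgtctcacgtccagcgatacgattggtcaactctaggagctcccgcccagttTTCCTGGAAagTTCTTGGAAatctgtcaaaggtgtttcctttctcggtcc
Bcl6 start 1: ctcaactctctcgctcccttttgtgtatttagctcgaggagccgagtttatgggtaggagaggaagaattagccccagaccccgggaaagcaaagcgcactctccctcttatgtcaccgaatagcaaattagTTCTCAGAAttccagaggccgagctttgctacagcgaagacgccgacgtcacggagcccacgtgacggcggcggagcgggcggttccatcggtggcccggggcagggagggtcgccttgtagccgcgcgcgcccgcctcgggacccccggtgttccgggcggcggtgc
Bcl6 start 2: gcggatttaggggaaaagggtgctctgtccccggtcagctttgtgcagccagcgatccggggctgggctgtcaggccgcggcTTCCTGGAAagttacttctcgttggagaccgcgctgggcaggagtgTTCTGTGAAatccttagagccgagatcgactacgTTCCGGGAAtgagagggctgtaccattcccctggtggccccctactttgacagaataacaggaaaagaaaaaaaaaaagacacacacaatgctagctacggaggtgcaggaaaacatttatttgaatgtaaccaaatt
The 2 Cish motifs, TTCCTGGAA and TTCTTGGAA, begin at positions 1 and 12 counted from the start. The motif of Bcl6 start 1, TTCTCAGAA, begins at -118, and those of start 2, TTCCTGGAA, TTCTGTGAA and TTCCGGGAA, begin at -168, -122 and -88. Windows were found for 9 of the 10 genes, 16 windows in all, and 5 of them hold the motif. These 5 belong to Cish, Bcl6 and Igfals, and the Igfals motifs, TTCTCAGAA and TTCCTAGAA, lie at -236 and -58 of 2 of its starts. Of the 32851 RefSeq mouse windows of this length, 8.298% hold at least 1 match, 0.4566% at least 2 and 0.03348% at least 3. A match describes letters in the window and was not tested for binding. No window was found for Socs2.

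Total counts were 11938596 to 23250885 per liver, so a count of 3 was worth between 0.129 and 0.251 CPM before the TMM correction. That correction shifts these values in each liver. Degs1 was at 26.1 to 41.6 CPM in knockouts on high-fat diet, against 60.2 to 100.9 CPM in their controls, and at 35.9 to 39.3 CPM in knockouts on chow, against 80.4 to 87.9 CPM in their controls. All 16 livers had the Y-linked gene Ddx3y at 66.0 CPM or more and Xist at 0.267 CPM or less, the pattern of male tissue. Hepatocyte markers (8 genes) summed to at least 56232 CPM in every liver, those of the B cell, T cell and neutrophil lists to 9.06 CPM or less each, erythroid markers to 64.6 to 687.6 CPM, and no marker was at 0 in all 16 livers. In bulk tissue, fewer cells of a type and less RNA per cell cannot be told apart. Chow knockout replicate 1 had the lowest total count, and high-fat control replicate 3 the lowest level of the nuclear RNA Malat1. Malat1 was at 2949 to 3512 CPM in high-fat knockouts, 179.6 to 4028 CPM in high-fat controls (179.6 in replicate 3), 689.6 to 1360 CPM in chow knockouts and 249 to 666 CPM in chow controls.

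Within chow controls, levels per kilobase of merged exons were highest for Egfr, at 135 CPM per kb, then Ghr at 85.6, Igf1 at 54.9, Igfals at 44.2 and Stat5b at 12.2. They were lower for Bcl6 at 4.03, Socs2 at 3.40, Cish at 2.19 and Stat5a at 1.52, and lowest for Cux2 at 0.0377 CPM per kb. The ranges of Igf1 (52.3 to 59.0) and Igfals (34.2 to 65.7) overlapped, as did those of Bcl6 (0.477 to 7.51), Socs2 (2.08 to 5.603), Cish (0.280 to 4.24) and Stat5a (1.35 to 1.97, within the range of Cish). The other neighbours in this order did not overlap. With the longest transcript as the length, Ghr (185.7 CPM per kb) stood above Egfr (149.8), and Socs2 (7.63) above Bcl6 (6.86).

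**Figure D1:**
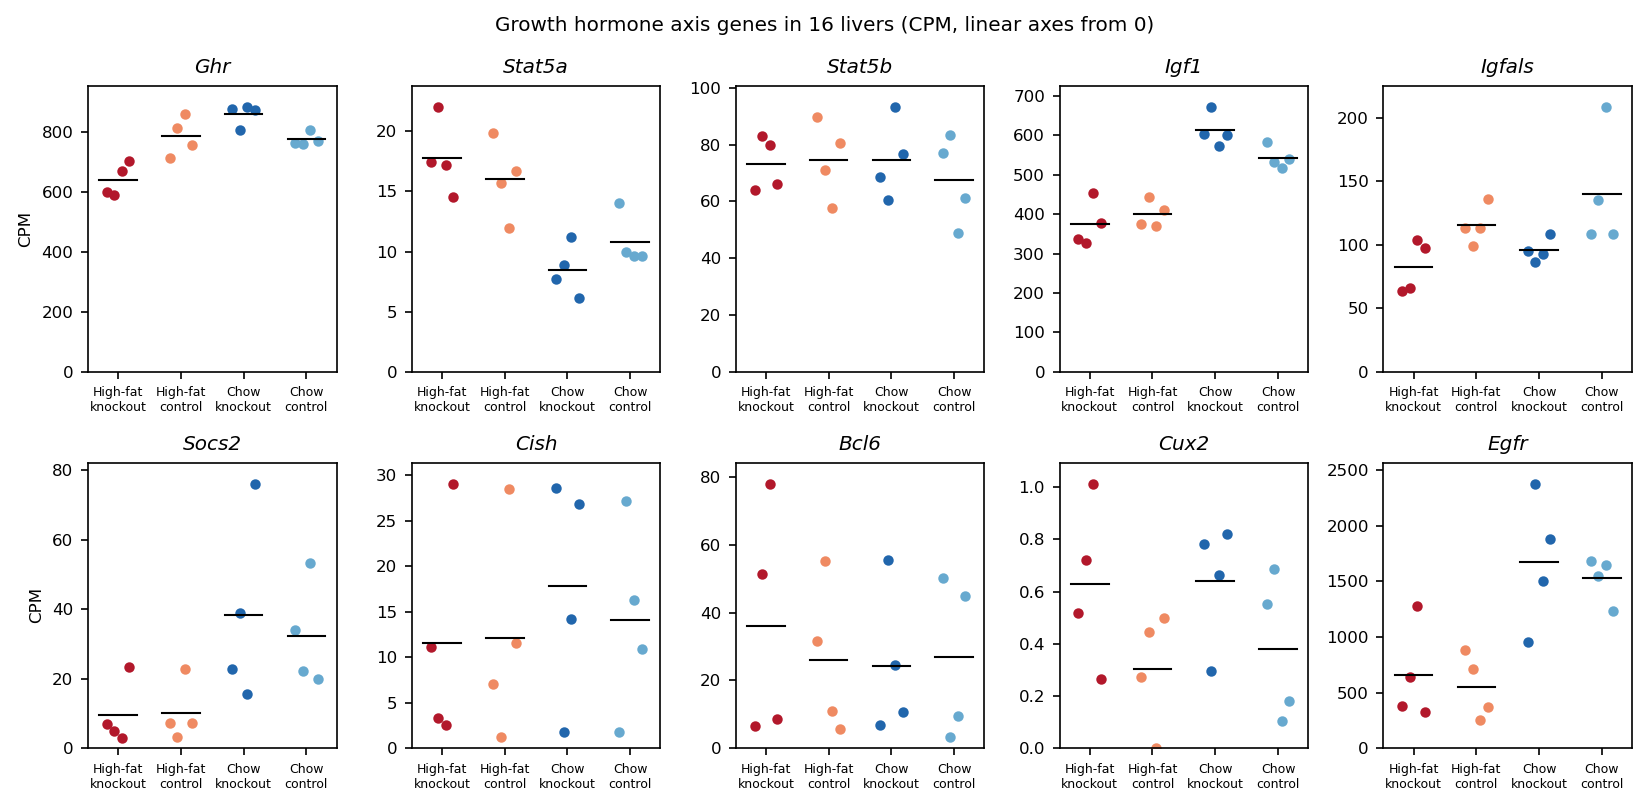
Level of each of the 10 genes in every liver, in CPM on linear axes from 0, with high-fat knockout, high-fat control, chow knockout and chow control from left to right, each point 1 liver and each bar a group mean. Ghr and Igf1 lie close together within groups, while Cish and Bcl6 spread over more than the distance between any group means.

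Between high-fat and chow feeding, 5 genes of the axis differed in knockout livers. Stat5a rose 2.09-fold, and Igf1, Ghr, Egfr and Socs2 fell to 0.611, 0.746, 0.391 and 0.247 of the chow level in the fitted model. Stat5b, Igfals, Cish, Bcl6 and Cux2 did not pass the test. The 5 of 10 genes that passed edgeR's quasi-likelihood test at an adjusted p under 0.05 compare with 10.6% of all genes tested, 5.21% higher and 5.35% lower. The median log2 difference of the 10 genes was -0.32, against 0.02 over all genes tested. In the controls the same diet comparison called 0 of the 10 genes, where 1.83% of all genes were called (0.941% higher and 0.885% lower). There 4 of the 10 had an unadjusted p under 0.05, as 17.1% of all genes had. DESeq2 and limma-voom with quality weights each called 2 of the 10. Their shares of all genes called are not given here, and the 1.83% does not apply to them.

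Ghr, the receptor through which the liver senses growth hormone, was at 599, 589, 670.4 and 701 CPM in the 4 high-fat knockout livers, against 874.9, 805.6, 881.9 and 871.7 CPM in the chow knockout livers. Every high-fat knockout lay below every chow knockout. The log2 difference was -0.42 ± 0.11 (SE, n = 4 each, edgeR adjusted p = 0.0262). In controls Ghr was at 713, 813, 858 and 756 CPM on high-fat diet, against 763, 760.5, 807 and 770.2 CPM on chow, and the groups overlapped (log2 difference 0.02 ± 0.11, edgeR adjusted p = 0.962). The interaction, the diet difference in knockouts minus that in controls, was -0.44 ± 0.16 for Ghr (edgeR unadjusted p = 0.0131, adjusted p = 0.323), the 1 of the 10 interactions with an unadjusted p under 0.05, as 11.3% of all genes had. No gene of the 14351 passed the interaction test (0% called, 1615 at an unadjusted p under 0.05, and 0 of the 10 genes called by DESeq2), so the diet effect on Ghr was not shown to differ between genotypes.

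Stat5a and Stat5b encode the 2 forms of STAT5, of which STAT5B is the more abundant in liver. Stat5a was at 17.4, 22.0, 17.2 and 14.6 CPM in high-fat knockouts, against 7.71, 8.88, 11.2 and 6.15 CPM in chow knockouts. The groups did not overlap, and the log2 difference was 1.06 ± 0.21 (edgeR adjusted p = 0.00641). In controls Stat5a was at 19.9, 15.7, 11.98 and 16.7 CPM on high-fat diet, against 14.04, 9.98, 9.65 and 9.60 CPM on chow. The groups overlapped there, and the log2 difference of 0.57 ± 0.20 did not pass (edgeR adjusted p = 0.153). Stat5b was at 64.2 to 83.1 CPM in high-fat knockouts and 60.4 to 93.2 CPM in chow knockouts, with a log2 difference of -0.03 ± 0.18 (95% interval -0.41 to 0.35). The exons of Stat5a and Stat5b are similar, and the Stat5a gene overlaps Stat3 on the opposite strand, so the split of reads depends on settings not given in the sources used here. Stat3 itself showed a log2 difference of -0.01 between high-fat and chow knockouts (edgeR adjusted p = 0.964).

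Igf1, the growth factor that liver secretes under growth hormone, was at 337, 326, 454 and 379 CPM in high-fat knockouts, against 603, 671, 573 and 601 CPM in chow knockouts. All 4 high-fat livers lay well below the chow livers (log2 difference -0.71 ± 0.13, edgeR adjusted p = 0.00439). In controls it was at 375, 444, 371 and 409.6 CPM on high-fat diet, against 584, 532, 518 and 539 CPM on chow. These groups did not overlap either, while the log2 difference of -0.44 ± 0.13 fell short of the threshold after adjustment (edgeR adjusted p = 0.0800). DESeq2 called the control difference (adjusted p = 0.0141). The interaction for Igf1 was -0.27 ± 0.18 (edgeR adjusted p = 0.598).

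Igfals encodes the acid-labile subunit, which holds circulating IGF1 in a long-lived complex. It was at 63.6, 65.9, 103.9 and 97.7 CPM in high-fat knockouts, against 112.9, 98.9, 113.5 and 136 CPM in high-fat controls. On chow it was at 95.2, 86.7, 93.0 and 108.6 CPM in knockouts, against 108.8, 135, 208 and 108.3 CPM in controls. Knockouts lay lower on both diets, with a small overlap on each. The log2 differences were -0.48 ± 0.21 on high-fat diet (edgeR adjusted p = 0.191) and -0.55 ± 0.21 on chow (edgeR adjusted p = 0.464). Without chow control 3, the highest liver, the difference on chow was -0.28 (edgeR adjusted p = 0.875). Averaged over the diets the difference was -0.51 ± 0.15 (edgeR unadjusted p = 0.00241, adjusted p = 0.135), which did not pass; DESeq2 gave an adjusted p of 0.0479. Diet differences in Igfals were -0.21 ± 0.21 in knockouts and -0.28 ± 0.20 in controls, neither past the test (edgeR adjusted p = 0.523 and 0.536).

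Socs2, a feedback inhibitor whose loss in mice causes overgrowth, was at 6.91, 4.94, 3.04 and 23.5 CPM in high-fat knockouts, against 22.7, 39.0, 15.7 and 76.1 CPM in chow knockouts. Replicate 4 of the high-fat knockouts reached into the chow range. The log2 difference was -2.02 ± 0.63, with an edgeR adjusted p of 0.0499 next to the threshold. In controls Socs2 was at 7.33, 3.38, 22.9 and 7.15 CPM on high-fat diet, against 34.0, 22.2, 53.4 and 19.8 CPM on chow. Replicate 3 was the high-fat liver that overlapped, and the log2 difference of -1.68 ± 0.63 did not pass (edgeR adjusted p = 0.177). Without that liver it was -2.44 with an edgeR adjusted p of 0.0322.

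Egfr, the receptor for epidermal growth factor and a growth-hormone-dependent gene of mouse liver, was at 379, 637, 1280 and 329 CPM in high-fat knockouts, against 951, 2377, 1507 and 1876 CPM in chow knockouts. Replicate 3 of the high-fat knockouts lay above the lowest chow knockout. The log2 difference was -1.35 ± 0.41 (edgeR adjusted p = 0.0442). In controls it was at 881, 712, 251.5 and 371.5 CPM on high-fat diet, against 1685, 1551, 1645 and 1233 CPM on chow. Those groups did not overlap, and the log2 difference of -1.46 ± 0.41 had an edgeR adjusted p of 0.0763, while DESeq2 gave 0.0456.

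Groups did not overlap for 3 of the 10 genes between high-fat and chow knockouts (Ghr, Stat5a and Igf1), where 24.5% of all genes did not overlap. In controls this held for 2 of the 10 (Igf1 and Egfr), against 7.23% of all genes. Stat5a and Igf1 passed in all 28 alternatives of the comparison in knockouts, whereas Ghr passed in 18, Egfr in 14, Socs2 in 13 and Bcl6, not called otherwise, in 1, the fit with no filter on low counts. With library totals alone the log2 difference of Ghr was -0.085 (edgeR adjusted p = 0.550), where the median of all genes moved to 0.36. With log2 Malat1 CPM as a covariate, the log2 difference was -0.35 for Ghr (edgeR adjusted p = 0.0717) and -0.93 for Socs2 (edgeR adjusted p = 0.383), while Stat5a, Igf1 and Egfr passed. The Ghr call was lost without high-fat knockout 1, 2 or 3 or chow knockout 2, 3 or 4, with edgeR adjusted p of 0.0568 to 0.1065 and log2 differences of -0.44 to -0.38. The Egfr call was lost without high-fat knockout 1, 2 or 4 or chow knockout 2, 3 or 4 (edgeR adjusted p of 0.0642 to 0.139). The Socs2 call was lost without high-fat knockout 1, 2 or 3 or chow knockout 2 or 4 (edgeR adjusted p of 0.1065 to 0.177), and its log2 difference was -1.43 without chow knockout 4. The Egfr and Socs2 calls were also lost without some single control livers, with adjusted p of at most 0.0606. Summed hepatocyte markers were 56232 to 75454 CPM in high-fat knockouts, against 113054 to 134273 CPM in chow knockouts. The marker albumin (Alb) alone ranged from 40870 to 105670 CPM over the 16 livers, so it made up much of these sums. Between high-fat and chow knockouts 3 of the 8 hepatocyte markers fell, where 5.35% of all genes fell. There 2 of 6 macrophage and monocyte markers and 2 of 6 stellate cell markers rose, where 5.21% of all genes rose. The part of these shifts in the results above was not tested.

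**Figure D2:**
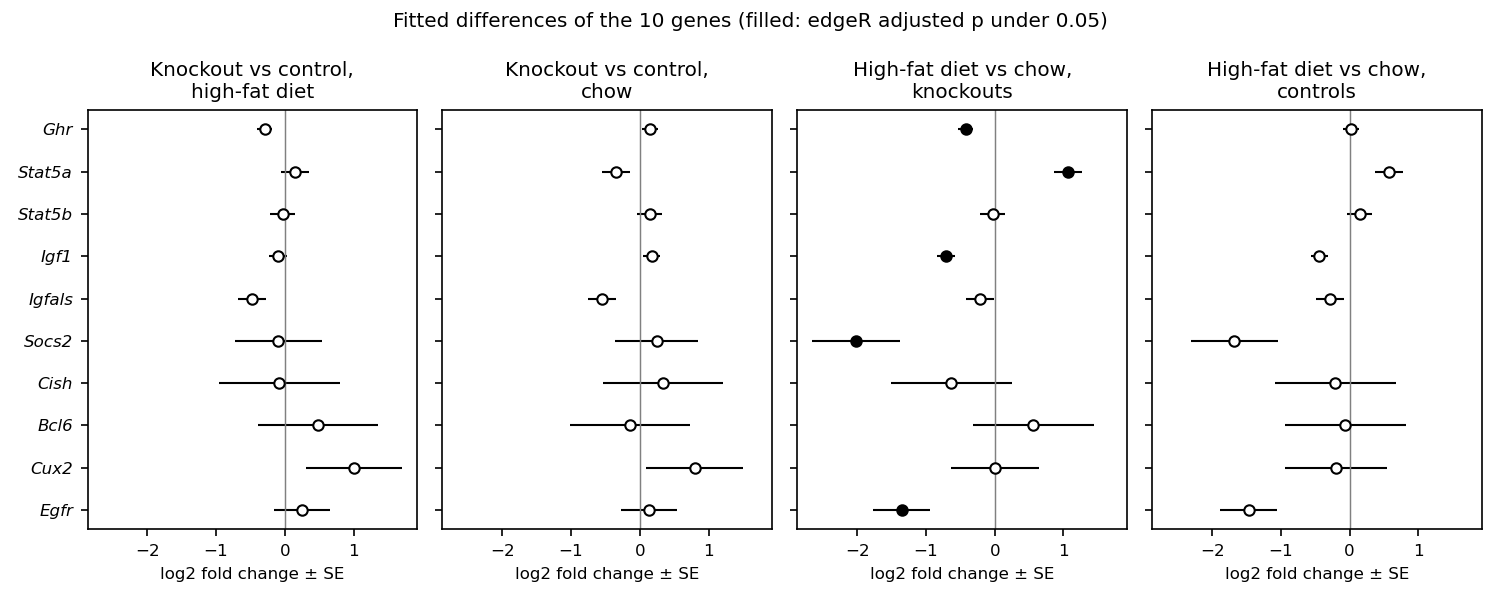
Fitted log2 differences of the 10 genes in 4 comparisons, with bars of 1 standard error and filled points for an edgeR adjusted p under 0.05. The 5 filled points all lie in the comparison of high-fat diet with chow in knockouts, and bars are widest for Cish, Bcl6, Cux2 and Socs2.

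Loss of Degs1 left no member of the axis past the test on either diet. Between knockouts and controls on high-fat diet 0 of the 10 genes were called, where 0.111% of all genes were, and 2 of the 10 (Ghr and Igfals) had an unadjusted p under 0.05, as 21.4% of all genes had. On chow 0 of the 10 were called, against 0.0139% of all genes, and 1 of the 10, Igfals, had an unadjusted p under 0.05, as 9.52% of all genes had. Averaged over the diets 0 of 10 were called, against 0.174% of all genes, with Igfals at an unadjusted p under 0.05, as 20.7% of all genes were, and called by DESeq2. Ghr was at 589 to 701 CPM in high-fat knockouts, against 713 to 858 CPM in high-fat controls. It was the 1 gene of the 10 whose groups did not overlap in that comparison, where 13.2% of all genes did not, and on chow 0 of the 10 were without overlap, against 6.34% of all genes. The Ghr log2 difference on high-fat diet was -0.29 ± 0.11 (edgeR adjusted p = 0.152), and DESeq2 called it (adjusted p = 0.0441). DESeq2 called 0 of the 10 genes on chow. The comparison of high-fat knockouts with high-fat controls and that of high-fat with chow knockouts use the same 4 high-fat knockout livers, so their Ghr values are not independent. For Igf1 the 95% interval of the log2 knockout difference was -0.36 to 0.17 on high-fat diet and -0.09 to 0.44 on chow. For Egfr it was -0.61 to 1.10 and -0.72 to 0.99, so changes of that size in either direction could have been missed.

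Cish and Bcl6 varied between livers of the same group far more than between groups. Cish, a STAT5-induced inhibitor of cytokine signalling, was at 11.2, 3.29, 2.56 and 29.1 CPM in high-fat knockouts and 7.12, 1.27, 28.6 and 11.6 CPM in high-fat controls. It was at 28.6, 1.78, 14.2 and 26.9 CPM in chow knockouts and 1.80, 27.2, 16.3 and 10.96 CPM in chow controls. The lowest liver of each group was at 1.27 to 2.56 CPM and the highest at 27.2 to 29.1 CPM. Bcl6, a transcriptional repressor that binds many of the same sites as STAT5 in mouse liver, was at 6.71, 51.2, 78.0 and 8.59 CPM in high-fat knockouts and 31.7, 55.2, 11.1 and 5.70 CPM in high-fat controls. It was at 6.83, 55.4, 24.4 and 10.7 CPM in chow knockouts and 50.3, 3.20, 9.40 and 45.0 CPM in chow controls. In every group the liver with the least Cish had the most Bcl6, at 78.0, 55.2, 55.4 and 50.3 CPM in the same order of groups.

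The opposite course of Cish and Bcl6 was seen in the values and then tested together with the other pairs. Each gene's log2 CPM was taken as its deviation from the group mean, so that diet and genotype were removed, and the 45 pairs of the 10 genes were tested by permuting livers within groups (100000 permutations, two-sided, Benjamini-Hochberg adjustment over the 45 pairs). For Cish and Bcl6, Pearson's r was -0.84 over the 16 livers (permutation p = 0.00041, adjusted 0.0185) and Spearman's rho was -0.81 (permutation p = 0.00126, adjusted 0.0567). It was the 1 pair of 45 with an adjusted p of r under 0.05, and 0 pairs passed by both r and rho. Within the groups, of 4 livers each, r was -0.90 in high-fat knockouts, -0.79 in high-fat controls, -0.93 in chow knockouts and -0.80 in chow controls. Without the 2 livers farthest from the median of Cish it was -0.81, and it ran from -0.89 to -0.82 under other scalings and with each liver left out. CPM values of a liver share that library's depth and scaling.

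Other pairs did not pass the adjustment. Stat5b and Cux2 had an r of 0.78 (permutation, adjusted p = 0.0785), which rests on Cux2 counts of 0 to 19 a liver. Egfr had an r of 0.65 with Bcl6 (permutation, adjusted p = 0.154) and of -0.69 with Cish (permutation, adjusted p = 0.123). Socs2 and Cish, both feedback inhibitors, had an r of 0.50 (permutation, adjusted p = 0.306). In the 4 high-fat knockouts and the 4 high-fat controls r was 0.95 and 0.94 for that pair, against -0.03 in chow knockouts and -0.17 in chow controls, and these differences were not tested. Igf1 and Ghr had an r of 0.27 (permutation, adjusted p = 0.643).

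**Figure D3:**
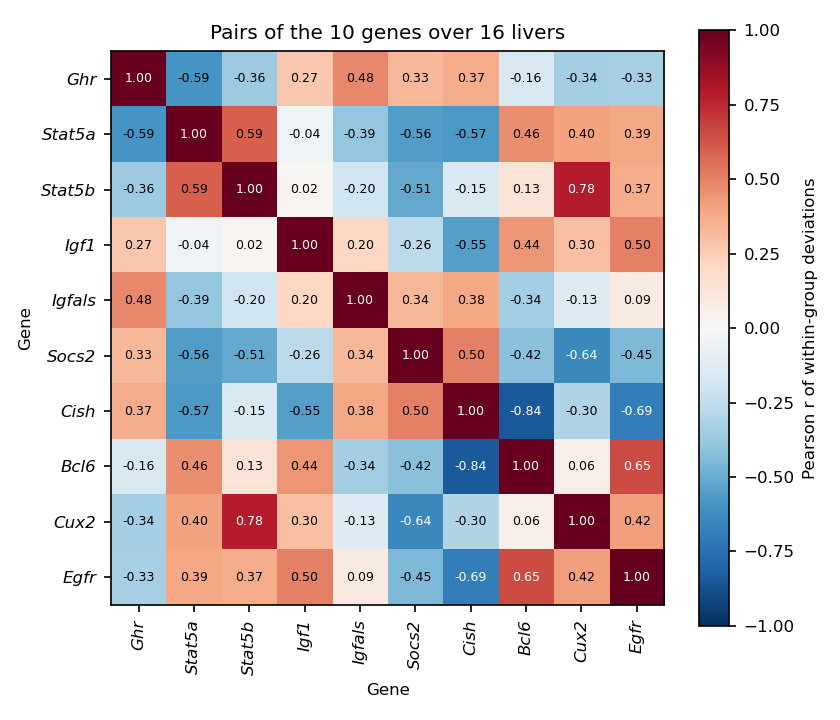
Pearson's r between within-group deviations of log2 CPM for each pair of the 10 genes over the 16 livers, coloured from -1 to 1. The deepest negative cell is Cish with Bcl6, at -0.84, and Stat5b with Cux2 is the highest off the diagonal, at 0.78.

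Among the 9883 genes whose log2 CPM averaged 2 or more, the gene whose log2 CPM was most like that of Cish over the 16 livers was Foxa2 (r = 0.89, and 0.92 between within-group deviations). Foxa2 encodes a pioneer transcription factor of hepatocytes. It was at 24.5, 20.8, 19.4 and 35.7 CPM in high-fat knockouts and 25.2, 19.6, 37.5 and 26.2 CPM in high-fat controls. On chow it was at 34.9, 18.5, 26.9 and 33.9 CPM in knockouts and 16.7, 36.0, 27.4 and 18.1 CPM in controls. The liver with the most Cish in each group also had the most Foxa2. Bcl6 itself was the gene most opposite to Cish (r = -0.83), followed by Tbx3 (r = -0.81), a T-box transcription factor, and Tbx3 was the gene most like Bcl6 (r = 0.80). Tbx3 ranged over 17.9 to 43.6 CPM in high-fat knockouts, 11.4 to 35.8 CPM in high-fat controls, 14.1 to 41.4 CPM in chow knockouts and 12.7 to 32.5 CPM in chow controls. These values were picked as the extremes among many genes and are a description. Egfr was most like Rprd1b (r = 0.93) and Serpina1e (r = 0.92), and Igf1 most like Slco2a1 and Cyp2c23 (r = 0.94 and 0.93). Values of r over all 16 livers include the differences between groups.

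**Figure D4:**
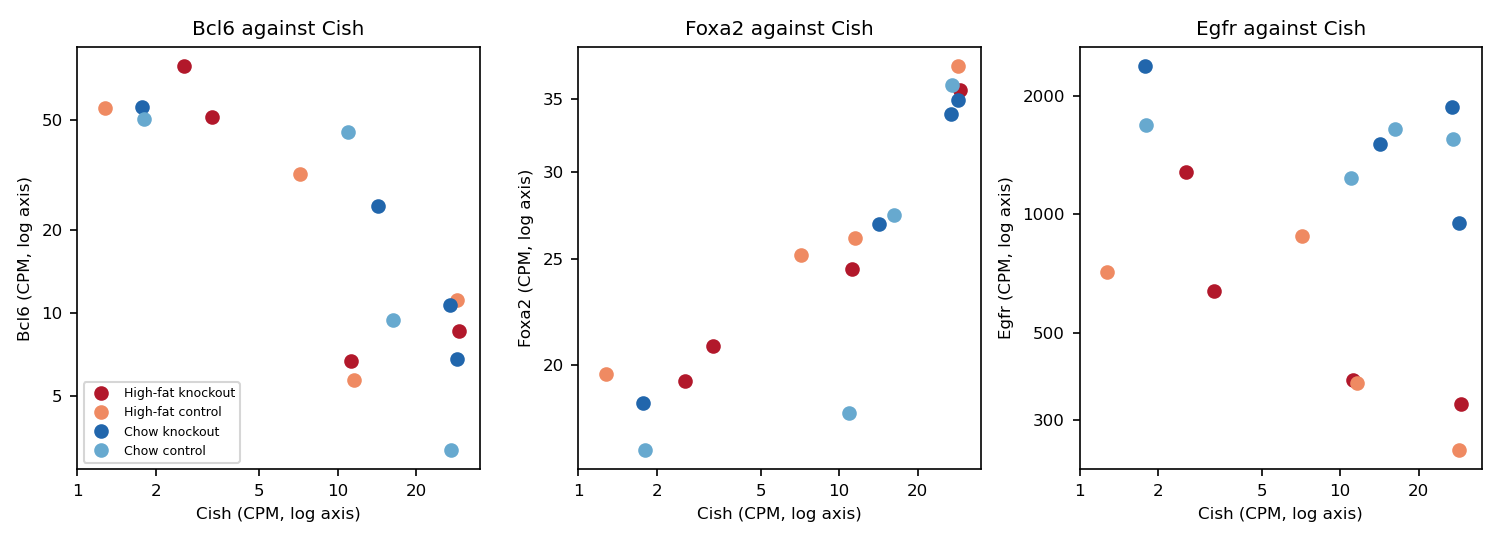
Bcl6, Foxa2 and Egfr against Cish in each of the 16 livers, all in CPM on log axes, coloured by group. In each of the 4 groups the liver with the most Cish has the most Foxa2 and the liver with the least Cish has the most Bcl6, whereas in the panel of Egfr the high-fat livers lie mostly below the chow livers.

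Diet and genotype differences in Cish and Bcl6 did not pass the test. The log2 difference between high-fat and chow knockouts was -0.63 for Cish (95% interval -2.49 to 1.22) and 0.56 for Bcl6 (95% interval -1.28 to 2.40). For Bcl6 this difference ran from -0.56 with the Malat1 covariate to 1.37 without chow knockout 2, and was -0.13 without high-fat knockout 3. It passed with no filter on low counts (log2 difference 0.57, edgeR adjusted p = 0.0369). The main fit gave nearly the same difference with an edgeR adjusted p of 0.709, and DESeq2 0.58 with an adjusted p of 0.740. Between knockouts and controls on high-fat diet the log2 difference was -0.08 for Cish (95% interval -1.94 to 1.77) and 0.48 for Bcl6 (95% interval -1.36 to 2.32). Cux2, which is low in male mouse liver, had 4 to 19 counts in high-fat knockouts, 0 to 10 in high-fat controls, 5 to 12 in chow knockouts and 2 to 9 in chow controls. These counts lie near the 3 counts taken as the floor of detection, so a diet or genotype difference in Cux2 was not detectable at this depth unless large.

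Genes known as sex-biased in mouse liver, many of them set by the pattern of growth hormone, were followed as a list of 28 male-biased and a list of 32 female-biased genes. Between high-fat and chow knockouts, 20 of the 28 male-biased genes fell and 0 rose, where 5.35% of all genes fell and 5.21% rose, with a median log2 difference of -1.37 against 0.02 over all genes. In controls 8 of 28 fell and 0 rose, where 0.885% of all genes fell and 0.941% rose, with a median of -0.97 against 0.01. The 8 that fell in controls were 8 of 8 and 8 of 20 of the genes that fell in each genotype. No member of either list was called between knockouts and controls on either diet, or in the interaction. Of all genes, 0.111% were called on high-fat diet, 0.0139% on chow and 0% in the interaction. For the male-biased list 7 of 28 genes had an unadjusted p under 0.05 between high-fat knockouts and controls and 0 on chow, and for the female-biased list the numbers were 7 of 23 and 0. Over all genes the shares were 21.4% and 9.52%.

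Cyp4a12a, an arachidonic acid hydroxylase of male liver and kidney, averaged 32.3 ± 10.6 CPM in high-fat knockouts and 173 ± 54.0 CPM in chow knockouts (SD, n = 4 each), a log2 difference of -2.43 (edgeR adjusted p = 0.000167). In controls it averaged 60.04 ± 18.1 CPM on high-fat diet and 201 ± 35.8 CPM on chow (log2 difference -1.74, edgeR adjusted p = 0.00460). Mup20, a major urinary protein that serves as a male pheromone, averaged 1862 ± 199 CPM in high-fat knockouts and 5075 ± 513 CPM in chow knockouts (log2 difference -1.45, edgeR adjusted p = 0.00151). C6, a component of the terminal complement complex, averaged 209 ± 101 CPM in high-fat controls and 556.5 ± 72.0 CPM in chow controls (log2 difference -1.41, edgeR adjusted p = 0.00909). Mup20 was also called in controls (log2 difference -0.91, edgeR adjusted p = 0.0352). C6 was also called in knockouts (log2 difference -1.30, edgeR adjusted p = 0.00641). Serpina1e, a protease inhibitor of the alpha-1-antitrypsin family, ran at 190 to 975.2 CPM in high-fat knockouts and 3497 to 6489 CPM in chow knockouts (log2 difference -3.53, edgeR adjusted p = 0.00430). Its range was 143 to 1213 CPM in high-fat controls, against 3473 to 7763 CPM in chow controls (log2 difference -3.40, edgeR adjusted p = 0.00909). Mup, Cyp, Ugt2b and Serpina1 genes have near-identical copies, so values of single members are uncertain.

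Of the 32 female-biased genes, 23 passed the filter on low counts and were tested. Between high-fat and chow knockouts 6 rose and 1 fell, with a median log2 difference of 0.73 against 0.02 over all genes, of which 5.21% rose. In controls 8 rose and 0 fell, with a median of 0.999 against 0.01 over all genes, of which 0.941% rose. Of the risers, 5 were shared, 5 of 6 in knockouts and 5 of 8 in controls. Cyp2b9, a cytochrome P450 that is low in the liver of male mice, was at 28.3 to 119.9 CPM in high-fat knockouts and 0 to 0.302 CPM in chow knockouts. In controls it was at 37.2 to 157.6 CPM on high-fat diet and 0 to 0.316 CPM on chow. Cyp17a1, an enzyme of steroid synthesis, averaged 76.6 ± 57.4 CPM in high-fat controls and 10.2 ± 5.30 CPM in chow controls (log2 difference 2.90, edgeR adjusted p = 0.00856). Cd36, a fatty acid transporter, averaged 148 ± 94.9 CPM in high-fat knockouts and 39.9 ± 9.89 CPM in chow knockouts (log2 difference 1.90, edgeR adjusted p = 0.0127). Cyp17a1 was also called in knockouts (log2 difference 2.02, edgeR adjusted p = 0.0195). Cd36 was also called in controls (log2 difference 1.74, edgeR adjusted p = 0.0447). Vldlr, the very low density lipoprotein receptor, averaged 9.87 ± 2.42 CPM in high-fat controls and 2.04 ± 0.839 CPM in chow controls (log2 difference 2.25, edgeR adjusted p = 0.0143). The female-biased gene that fell in knockouts was Cyp2c69, which was at 0 to 0.0514 CPM on high-fat diet and 0.205 to 0.878 CPM on chow, near the floor. For genes near 0 on chow the fitted fold depends on the prior count, so levels are given here. Cyp2b13 was at 0 counts in all 4 chow controls, and with this gene set to its bound the list's median in controls was still 0.999.

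**Figure D5:**
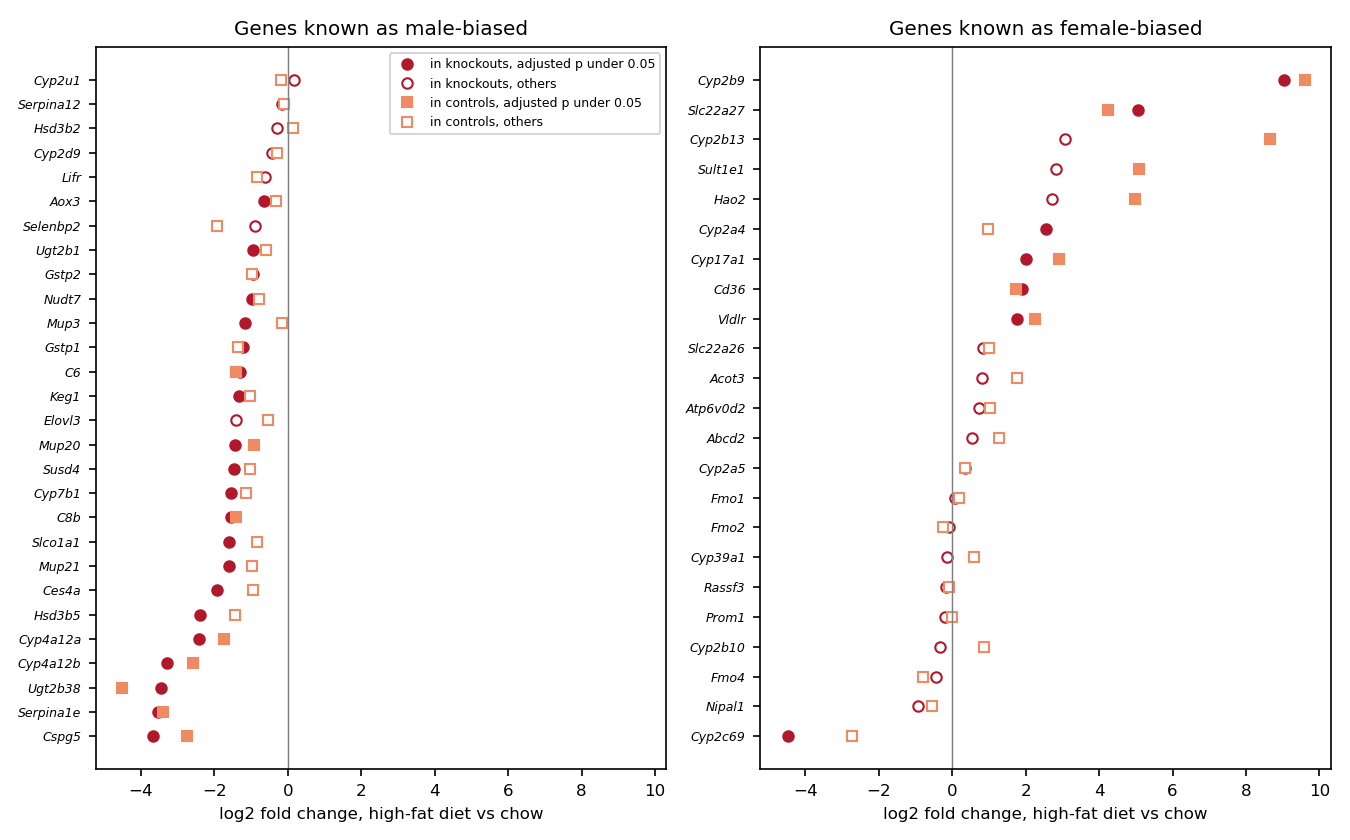
Fitted log2 differences between high-fat diet and chow for the genes known as male-biased and female-biased in mouse liver, in knockouts and in controls, each point 1 gene and filled where the edgeR adjusted p was under 0.05. Male-biased genes lie mostly below 0, with medians of -1.37 in knockouts and -0.97 in controls, and female-biased genes mostly above, with medians of 0.73 and 0.999.

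Counts on these lists moved with the processing, and the share of all genes called under each other setting is not given here. The male-biased count in controls was 14 without high-fat control 3 and chow knockout 1, and 15 with DESeq2. The female-biased count of risers in knockouts was 2 without chow knockout 2, and in controls it was 4 without chow control 2. The Malat1 range and the hepatocyte marker sums given above also separate the diets in knockouts. With log2 Malat1 CPM as a covariate, 16 male-biased genes fell in knockouts and 11 in controls, and 7 female-biased genes rose in knockouts and 8 in controls. The part of the hepatocyte marker shift in these counts was not tested.

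Of 26 genes of growth hormone receptor signalling and its negative regulators, 25 could be tested, and 3 rose and 1 fell between high-fat and chow knockouts, where 10.6% of all genes were called. Sirpa, a receptor that recruits SHP phosphatases, averaged 55.0 ± 17.6 CPM in high-fat knockouts and 25.3 ± 6.17 CPM in chow knockouts (log2 difference 1.12, edgeR adjusted p = 0.0112). Ptpn6, which encodes the phosphatase SHP-1, rose by a log2 difference of 0.53 (edgeR adjusted p = 0.0436), and Socs4, a SOCS-box protein, had a log2 difference of -0.71 (edgeR adjusted p = 0.00700). Sirpa and Ptpn6 are also expressed by macrophages, whose markers summed to 151.6 to 296 CPM in high-fat knockouts and 136 to 210.5 CPM in chow knockouts; their part in these results was not tested. Jak2, the kinase bound to the receptor, had a log2 difference of -0.01 (edgeR adjusted p = 0.981). In controls, where 1.83% of all genes were called, 0 of the 25 rose and 1 fell, Irs2, an adaptor of insulin and IGF1 signalling, which averaged 12.8 ± 4.15 CPM on high-fat diet and 44.6 ± 23.4 CPM on chow (log2 difference -1.81, edgeR adjusted p = 0.0119).

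Of 15 genes of the IGF system, 11 could be tested. Igfbp2, an IGF-binding protein made by liver, fell in knockouts, at 159.7 ± 93.7 CPM on high-fat diet and 427 ± 71.1 CPM on chow (log2 difference -1.42, edgeR adjusted p = 0.0266). Igfbp1, an insulin-repressed binding protein, fell in controls, at 22.5 ± 12.3 CPM on high-fat diet and 101 ± 83.8 CPM on chow (log2 difference -2.17, edgeR adjusted p = 0.0484). In knockouts and controls these were the only members called, 1 of 11 each, where 10.6% and 1.83% of all genes were called. Igfbp2 in controls had a log2 difference of -0.92 (edgeR adjusted p = 0.215). Igfbp1 in knockouts had a log2 difference of -1.05 (edgeR adjusted p = 0.197). The difference between genotypes did not pass for either gene. Igf1r, the IGF1 receptor, was at 6.93 to 8.90 CPM in high-fat knockouts and 6.46 to 9.85 CPM in chow knockouts. Of 14 tested genes among the relatives, ligands and regulators of Egfr, 0 were called in either diet comparison, with 3 at an unadjusted p under 0.05 in knockouts and 2 in controls, where 28.8% and 17.1% of all genes were.

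Of 20 genes listed here as hepatocyte factors acting with STAT5, 1 rose and 2 fell in knockouts. Of all genes, 5.21% rose and 5.35% fell there. Action of these 20 with STAT5 was not tested. In controls 1 of the 20 rose and 0 fell, where 0.941% of all genes rose and 0.885% fell. Nr1i3, the constitutive androstane receptor that drives Cyp2b genes, rose in both genotypes. It averaged 208 ± 41.1 CPM in high-fat knockouts and 102 ± 42.8 CPM in chow knockouts (log2 difference 1.03, edgeR adjusted p = 0.0139), and 232 ± 53.2 CPM in high-fat controls and 91.8 ± 14.3 CPM in chow controls (log2 difference 1.34, edgeR adjusted p = 0.00909). Cebpb (log2 difference -0.75, edgeR adjusted p = 0.0477) and Zhx1 (log2 difference -0.37, edgeR adjusted p = 0.0479) fell in knockouts. Foxa2 did not pass, with log2 differences of -0.19 in knockouts and 0.14 in controls. Of 20 other genes known as STAT5-dependent or changed by loss of growth hormone signalling, 0 rose and 3 fell in knockouts, where 5.35% of all genes fell: the serpin gene Serpina3k (log2 difference -1.07), the kinase gene Pim3 (-0.95) and the leptin receptor gene Lepr (-1.56). In controls 0 of these 20 were called, with 6 at an unadjusted p under 0.05, where 17.1% of all genes were. Between knockouts and controls, 0 genes of these pathway lists were called on either diet. Of all genes, 0.111% were called there on high-fat diet and 0.0139% on chow.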

How the data were processed

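Total RNA of mouse liver was sequenced after Illumina TruSeq Stranded preparation with Ribo-Zero Gold, per the labels' protocols. The values are the authors' deposited read counts, whole numbers for each Ensembl gene ID with no normalization. The submitters' processing notes name GRCm38, STAR 2.5.4a, featureCounts 1.5.1 and DESeq2. What each tool did, the strand setting and the treatment of multiply mapped reads were not given in the sources used here. Every column matched a sample (0 unmapped).

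Groups came from the titles. Genes were filtered with filterByExpr (minimum count 10), scaled by TMM and fitted with edgeR 4.0.16 in R 4.3.3 as 4 groups over all 16 livers (common biological coefficient of variation 0.247). Quasi-likelihood p-values were adjusted (Benjamini-Hochberg, threshold 0.05) over the 14351 genes. Each standard error is the size of the log2 difference divided by the square root of its F. log2 CPM for correlations used a prior count of 2. Symbols, positions and lengths came from GENCODE M21, which placed 53706 of the 53801 IDs. The fit was tested on simulated counts.

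The members and lists were chosen with earlier results of these data known. Named are all 10 members, 1 or 2 of the genes most like each of them except Cux2, and up to 4 genes of a list in a comparison. Genes named for their calls had small p, but not always the smallest. In controls Cspg5, Ugt2b38 and Hao2 had smaller edgeR p than some genes named from their lists. In knockouts the same held for Cspg5, Cyp4a12b and C8b of the male-biased list. Stat3, Jak2, Igf1r, Cyp2b13 and the genes most opposite to a member were added after their values were seen. Alternatives were DESeq2 1.42.0, limma-voom (limma 3.58.1) with and without quality weights, other scaling, filters and thresholds, a Malat1 covariate, fits of the groups compared only, and livers left out. A result for a gene on the list of receptor signalling is not reported here.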

Additional observations from a re-analysis of the deposited data

Results flagged for a closer look

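In 2 of the 40 groups of 4 livers checked, 1 liver lay farther from the other 3 than the 95% limit of Dixon's test allows; chance alone gives about 1 group in 20. Ghr in chow knockout replicate 2, at 805.6 CPM, was the lowest of its group, the other livers being at 871.7 to 881.9 CPM. Stat5a in chow control replicate 1, at 14.04 CPM, was the highest of its group, the others being at 9.60 to 9.98 CPM. Without chow knockout 2 the log2 difference of Ghr between high-fat and chow knockouts was -0.44, with an edgeR adjusted p of 0.0578.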

How the results depend on the processing

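Of the 5 genes called between high-fat and chow knockouts, the count was 2 with upper-quartile factors, 3 with library totals alone, a minimum count of 50 or the Malat1 covariate, and 2 to 5 with a liver left out (2 without chow knockout 2). In controls, where 0 were called, it was 2 with DESeq2, no filter on low counts, limma-voom with quality weights, an adjusted p threshold of 0.10, the Malat1 covariate, or without high-fat control 3 and chow knockout 1, and 0 to 2 with a liver left out (2 without high-fat control 3). Between knockouts and controls, DESeq2 called 1 on high-fat diet (Ghr), and DESeq2 and no filter each called 1 averaged over diets (Igfals). On chow and for the interaction the count was 0 in every alternative run. Male-biased genes that fell in controls, 8, were 15 with DESeq2, 18 with no filter, 13 with quality weights, 15 at the threshold of 0.10 and 14 without the 2 livers. Female-biased genes that rose in knockouts, 6, were 12 with no filter and 2 to 7 with a liver left out. In controls, 8, they were 5 at a minimum count of 50, 3 with limma-voom, 4 with only the groups compared and 4 to 8 with a liver left out. The cause was not tested. The share of all genes called under each setting is not given here. These counts therefore do not show whether the lists moved more than other genes. Of the 14 member differences with an unadjusted p under 0.05, 0 changed sign in 390 refits; of the 46 others, 35 did in 129 of 1262. Library totals alone moved the median of all genes to 0.36 on the log2 scale for the diet in knockouts, 0.23 for knockout on high-fat diet, 0.22 for the interaction, 0.13 for the diet in controls and 0.10 averaged over diets, and upper-quartile factors to 0.12 for the diet in knockouts. No paired analysis was possible because no animal number is shared between groups. Depth limits Cux2, and the spread between livers limits Cish, Bcl6 and Socs2.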

Other observations

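The genes most like the other members over the 16 livers, given as a description among 9883 genes, were Serinc1 (r = 0.94) and Gm4788 (r = 0.92) for Ghr, Tubgcp3 (r = 0.92) and Wdr91 (r = 0.88) for Stat5a, and Adamts7 (r = 0.85) and Itga5 (r = 0.79) for Stat5b. For Igfals they were Trappc11 (r = 0.87) and Tfr2 (r = 0.86), and for Socs2 they were 2310030G06Rik (r = 0.91) and Slc25a1 (r = 0.87), the mitochondrial citrate carrier. Albumin (Alb), the main secreted protein of hepatocytes, was the gene most opposite to Stat5a (r = -0.91) and ranged from 40870 to 105670 CPM.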
